A study of Homo sapiens with 9 samples.

Results

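DNA replication and S-phase genes were followed in HEK293 cells after transfection with small interfering RNAs (siRNAs). The 53 genes were picked by gene name to cover the licensing of origins, the proteins of the fork, the supply of nucleotides, and the cyclins and E2F factors that open S phase. Of them, 48 had a probe set annotated to that gene alone, and these are the members counted below, out of 22011 probe sets in the table. The other 5 (MCM7, PCNA, RPA3, POLA1 and FEN1) lay only on probe sets annotated to several genes and are described apart. HEK293 is a human embryonic kidney cell line transformed with adenovirus DNA, and the viral E1A protein it makes is known to bind the retinoblastoma protein RB1, which otherwise holds back E2F. Arrays fell into 3 groups of 3, all taken 48 h after transfection: siDBC1 (siRNA against DBC1, the protein of the gene CCAR2), arrays labelled siZNF326 (siRNA against ZNF326, also called ZIRD), and siCTR (control siRNA). The labels name no other treatment or allele in any group, and per the series' design text the 3 arrays of a group came from independent experiments. The study concerns the complex of DBC1 and ZNF326 in gene expression and splicing.

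Values are log2 expression values, 1 per probe set and array, so a difference of 1 is a 2-fold change. CCAR2 read 6.50, 6.54 and 6.65 on the siDBC1 arrays against 7.67, 7.67 and 7.84 on the siCTR arrays, and every siDBC1 array was below every siCTR array. ZNF326 read 6.12, 5.56 and 5.81 on the arrays labelled siZNF326 against 5.25, 5.64 and 5.76 in siCTR. It was therefore not lower where its siRNA is named, and the group name is used as a label of the arrays. Array medians over all probe sets ran from 5.58 to 5.89 in siDBC1, from 5.76 to 5.90 in the arrays labelled siZNF326 and from 5.67 to 5.78 in siCTR. Genes known from HEK293 were measured (VIM, KRT8, KRT18, NEFL, NEFM, INA and PAX2), and none of the 7 lay below the lower quartile of all 9 arrays. Among markers of other cells, PTPRC, CD3E and LYZ of 5 haematopoietic markers lay below that quartile on every array. So did ALB and APOB of 4 hepatocyte markers and DCN of 6 fibroblast markers. The remaining markers of other cells did not. In siCTR the fibroblast marker COL1A1 had a mean of 6.47 and the hepatocyte marker APOA1 of 5.93, both above the 5.84 of NEFM. These levels therefore do not separate HEK293 from other cells. No marker was called in any comparison. With 3 arrays in each group, precision is limited by their number. In bulk RNA, fewer cells in S phase and less RNA per cell cannot be told apart.

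Before S phase, the origin recognition complex (ORC1 to ORC6) marks origins, and CDC6 and CDT1 load the MCM2 to MCM7 helicase onto them, which geminin (GMNN) prevents outside its time by binding CDT1. The kinases CDC7 with DBF4 and CDK2 with cyclin E then switch the helicase on with CDC45 and the GINS complex, and the polymerases, the PCNA clamp and its RFC loader copy the DNA. Many of these genes are known targets of E2F factors, which cyclin D and cyclin E kinases release from RB1. CDKN1A encodes p21, which inhibits CDK2 and binds PCNA.

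The E2F letters are common in the promoters of these genes. The letters searched were TTTGGCGC, TTTGCCGC, TTTCGCGC and TTTCCCGC, on both strands, from 250 bases before to 50 bases after a RefSeq gene start on build GRCh38.p14. Of the 45 genes among the 53 with a promoter in that table, 23 (51.1%) held at least 1 of them, against 1090 of 27305 genes in the table (3.99%). MCM4, MCM5, GINS4, RPA2, RPA3, CCNE2, CCND1 and CDK2 were not in the table. The letters CCAAT, bound by the factor NF-Y, stood in 26 of the 45 (57.8%) against 39.7% of all genes, and TTTGAA, the core of a mitotic element, in 3 of 45 (6.67%) against 18.2%. A match is a description of the letters and not a shown site. The 100 bases from 80 before to 20 after the start follow for 7 genes that the results below turn on, with the E2F letters of either strand in capitals and the gene's strand written 5′ to 3′. GINS1 lies at chr20:25407593-25407692 (+ strand), CCNE1 at chr19:29811911-29812010 (+), PRIM1 at chr12:56752304-56752403 (−), CDT1 at chr16:88803709-88803808 (+), CDC6 at chr17:40287799-40287898 (+), MCM2 at chr3:127598331-127598430 (+) and E2F1 at chr20:33686366-33686465 (−).
GINS1: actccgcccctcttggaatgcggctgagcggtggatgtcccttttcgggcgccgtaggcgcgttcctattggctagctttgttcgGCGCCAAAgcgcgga
CCNE1: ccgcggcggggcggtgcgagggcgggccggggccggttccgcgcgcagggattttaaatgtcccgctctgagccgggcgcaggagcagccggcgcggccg
PRIM1: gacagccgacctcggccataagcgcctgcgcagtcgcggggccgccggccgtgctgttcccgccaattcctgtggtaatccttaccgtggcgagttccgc
CDT1: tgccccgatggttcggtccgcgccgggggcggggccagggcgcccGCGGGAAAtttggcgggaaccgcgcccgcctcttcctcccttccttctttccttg
CDC6: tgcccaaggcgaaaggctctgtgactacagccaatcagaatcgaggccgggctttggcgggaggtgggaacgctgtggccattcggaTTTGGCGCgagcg
MCM2: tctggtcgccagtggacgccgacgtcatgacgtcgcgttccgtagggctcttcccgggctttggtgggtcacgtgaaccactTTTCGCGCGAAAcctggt
E2F1: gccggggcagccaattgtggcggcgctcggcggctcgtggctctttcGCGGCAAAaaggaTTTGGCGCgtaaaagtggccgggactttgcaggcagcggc
GINS1, CDT1 and CDC6 held 1 match in these windows and E2F1 held 2. MCM2 held 2 that overlap, because its letters read the same on both strands. CCNE1 and PRIM1 held none in these windows or in the whole 300 bases. Near spellings, such as the unmarked tttggcgg in CDT1 and CDC6, were not searched, so no match does not mean no site. The values of members with and without the letters are given side by side, with no test. The median difference from siCTR was −0.10 over 20 members with them and −0.05 over 21 without them in siDBC1, and 0.08 and −0.003 in the arrays labelled siZNF326.

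No member passed the test over all probe sets in either comparison with siCTR. The test was limma's moderated test with Benjamini-Hochberg adjustment over all 22011 probe sets, and a call needed an adjusted p below 0.05. In siDBC1 0 of 48 members were called, where 0.0363% of all probe sets were. At an unadjusted p under 0.05 limma placed 6 of 48, where 6.18% of all probe sets stood. Of these members 3 were higher, where 3.63% of probe sets were, and 3 lower, where 2.55% were. In the arrays labelled siZNF326 0 of 48 were called, where 0.15% of all probe sets were, and 8 stood at an unadjusted p under 0.05, where 8.65% of all probe sets did. Of these members 5 were higher, where 6.13% of probe sets were, and 3 lower, where 2.52% were. The median difference of the members was −0.06 in siDBC1, with 20 above and 28 below siCTR, against a median of 0.01 over all probe sets. It was 0.08 in the arrays labelled siZNF326, with 28 above and 20 below, against 0.03 over all probe sets. This second median turned to −0.04 after quantile normalization and to −0.01 with arrays centred on their medians. The data bound most changes: the 95% interval of the difference lay within 2-fold either way for 42 of 48 members in siDBC1 and for 40 in the arrays labelled siZNF326.

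Within siDBC1 the members' median range over its 3 arrays was 0.75, and their median size of change from siCTR was 0.17. Over all probe sets these were 0.45 and 0.12. In the arrays labelled siZNF326 the members' range was 0.37 and their change 0.22, and in siCTR the range was 0.26. A range of single arrays is likely beforehand to exceed a difference of group means. On siDBC1 replicate 2 the members lay at a median of −0.39 from the siCTR mean, on replicate 3 at 0.27 and on replicate 1 at −0.02. Among the arrays labelled siZNF326, replicate 1 stood at 0.29 and replicates 2 and 3 at 0.03 and −0.01. The siCTR arrays stood at −0.07, −0.07 and 0.13. On siCTR replicate 3, 1 of 48 members (2.08%) lay below the siCTR mean, against 29.2% of all probe sets. That array held the highest value of all 9 for 13 members (27.1%), against 9.94% of all probe sets. Members were thus high on siDBC1 replicate 3 and siZNF326 replicate 1, less so on siCTR replicate 3, and low on siDBC1 replicate 2.

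**Figure D1:**
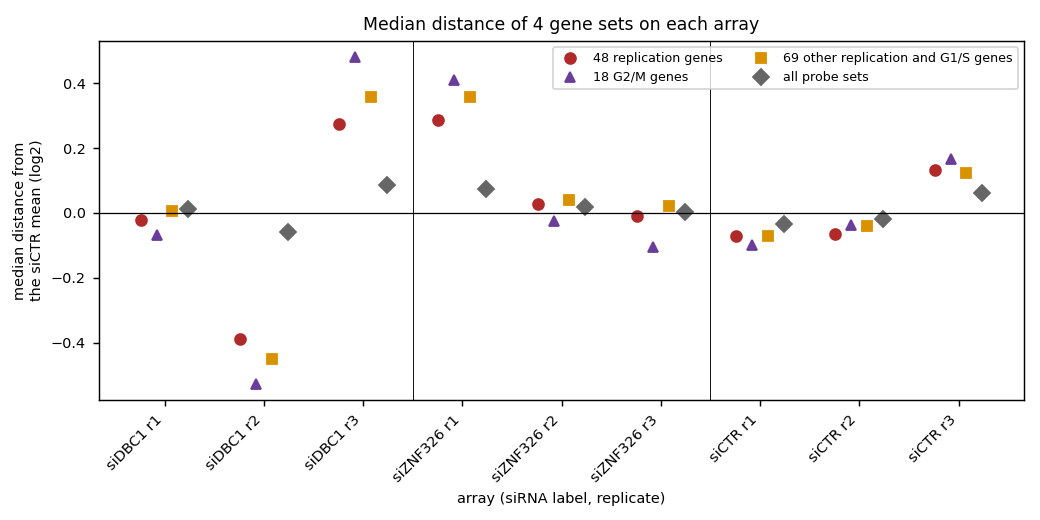
Median distance from the siCTR mean (log2, vertical axis) on each of the 9 arrays for the 48 replication genes, 69 other replication and G1/S genes, 18 G2/M genes and all 22011 probe sets. The 48 genes reach −0.39 on siDBC1 replicate 2 and 0.27 and 0.29 on siDBC1 replicate 3 and siZNF326 replicate 1, and the other cell cycle sets move with them.

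Of the 48 members, 34 (70.8%) had their lowest value of all 9 arrays on siDBC1 replicate 2, against 33.5% of all probe sets. The highest value fell on siDBC1 replicate 3 for 18 members (37.5%), against 19.2% of all probe sets, and on siZNF326 replicate 1 for 15 (31.2%), against 25.3%. In siDBC1, 43 of 48 members (89.6%) had replicate 2 lowest and replicate 3 highest, against 44.8% of all probe sets. The same arrays had the lowest and the highest medians over all probe sets, 5.58 for siDBC1 replicate 2, 5.89 for siDBC1 replicate 3 and 5.90 for siZNF326 replicate 1, while the other 6 ran from 5.67 to 5.78. The 18 measured G2/M genes were low and high on the same arrays, at −0.53 on siDBC1 replicate 2, 0.48 on siDBC1 replicate 3 and 0.41 on siZNF326 replicate 1. Fits without these arrays, and with the array median as a term, are given further on.

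**Figure D2:**
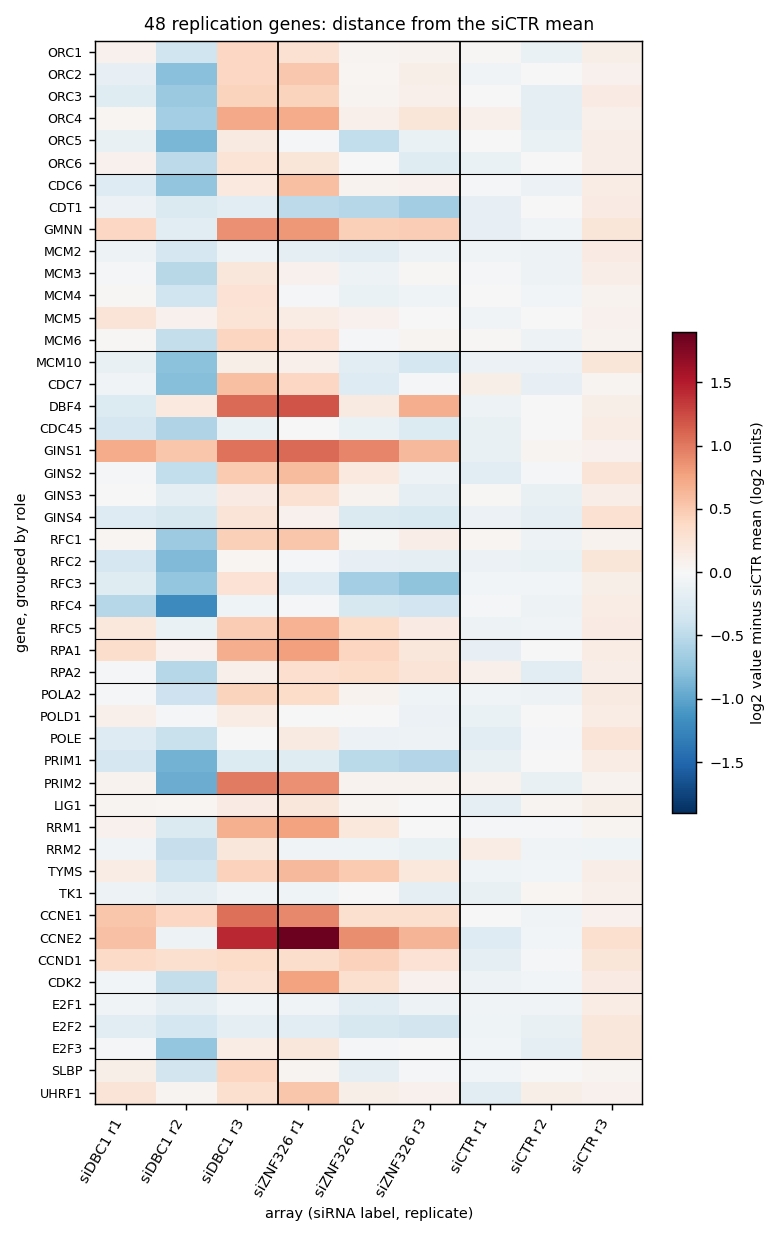
Distance of each of 48 genes from its siCTR mean (log2, colour) on the 9 arrays, with siDBC1 at the left, arrays labelled siZNF326 in the middle and siCTR at the right, and genes grouped by role. The column of siDBC1 replicate 2 is mostly blue, those of siDBC1 replicate 3 and siZNF326 replicate 1 mostly red, and GINS1, CCNE1 and CCND1 are red on all 6 siRNA arrays.

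The difference between siDBC1 replicates 3 and 2 had a median of 0.75 over the members, from 0.03 to 1.92, against 0.19 over all probe sets. PRIM2, the large subunit of primase, differed by 1.92 between these arrays, and CCNE2, CDC7, ORC4 and ORC2 by 1.52, 1.38, 1.37 and 1.18. CCND1, CDT1, E2F1, TK1, LIG1, E2F2, POLD1 and MCM5 differed by 0.03 to 0.18. By role, the median of this difference was highest for origin recognition genes, at 1.08 over 6, and lowest for LIG1 alone and the 3 E2F factors, at 0.12 and 0.15. Genes with longer genomic spans on GRCh38.p14 differed more between these arrays, with Spearman's rho of 0.28 across the 48 members and 0.32 across 14404 probe sets with a span, a description over genes that share the same arrays. The change from siCTR exceeded the difference between siDBC1 replicates 3 and 2 for 6 of 48 members in siDBC1. These arrays were picked as the extremes after the data were seen, and single arrays are set against group means. A low count is therefore likely beforehand, and the share over all probe sets was not counted.

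**Figure D3:**
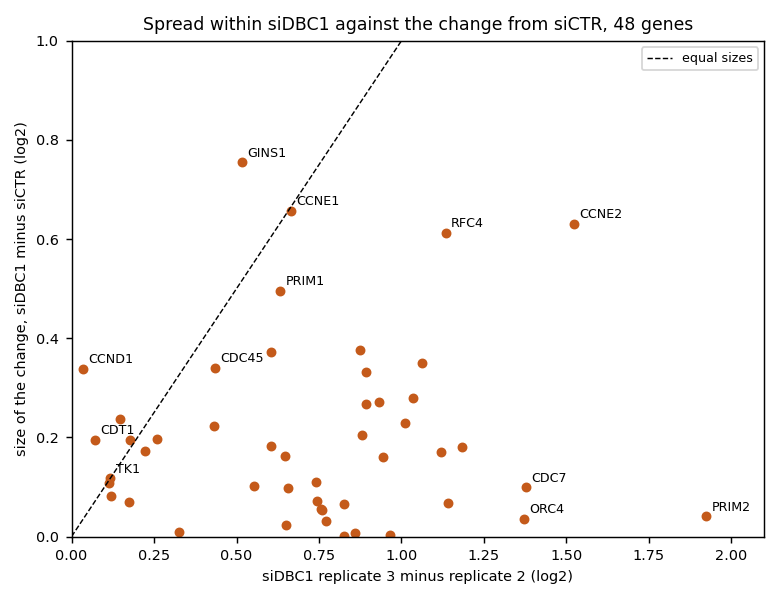
Size of the change from siCTR in siDBC1 (log2, vertical axis) against the difference between siDBC1 replicates 3 and 2 (log2, horizontal axis), 1 point per gene. Points above the dashed line, 6 of 48 and among them GINS1 and CCND1, differ from siCTR by more than these arrays differ, and PRIM2 lies farthest to the right at 1.92. The arrays were picked as the extremes after the data were seen.

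Leaving out single arrays moved the members' median. In siDBC1 it reached 0.12 when siDBC1 replicate 2 was omitted and −0.21 when replicate 3 was. Omitting siCTR replicate 3 gave 0.01. It was 0.002 in the arrays labelled siZNF326 without siZNF326 replicate 1 and 0.15 without siCTR replicate 3. Without siDBC1 replicates 2 and 3 and siZNF326 replicate 1 together, an alternative chosen after the data were seen that leaves a lone siDBC1 array assumed to vary like the others, the medians were −0.02 and 0.002 and 0 members were called in each comparison. When the median of each array entered the model as a covariate, also chosen after the data were seen, 6 members were called in siDBC1 (GINS1, CCNE1 and GMNN higher, and RFC4, PRIM1 and CDC45 lower). In the arrays labelled siZNF326, 5 were called in that fit (GINS1 higher, and CDT1, RFC3, RFC4 and PRIM1 lower). That covariate is computed from the same arrays, and over all probe sets the calls were 545 and 495 with it, against 8 and 33 without it.

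Several genes kept the same side of siCTR on all 3 arrays of a group. In siDBC1 the arrays did not overlap siCTR for 5 members, 3 higher (GINS1, CCNE1 and CCND1), where 5.18% of all probe sets did so, and 2 lower (PRIM1 and E2F2), where 3.66% did. In the arrays labelled siZNF326 they did not overlap for 13 members. Of these 9 were higher (GINS1, CCND1, CCNE2, CCNE1, RPA1, GMNN, TYMS, DBF4 and RPA2), where 12.9% of all probe sets were, and 4 lower (CDT1, E2F2, PRIM1 and RFC3), where 5.27% were. In both directions together this was 10.4% of members against 8.84% of probe sets in siDBC1, and 27.1% against 18.2% in the arrays labelled siZNF326. Both comparisons share the siCTR arrays. Groups that met only at an identical value were counted as overlapping.

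**Figure D4:**
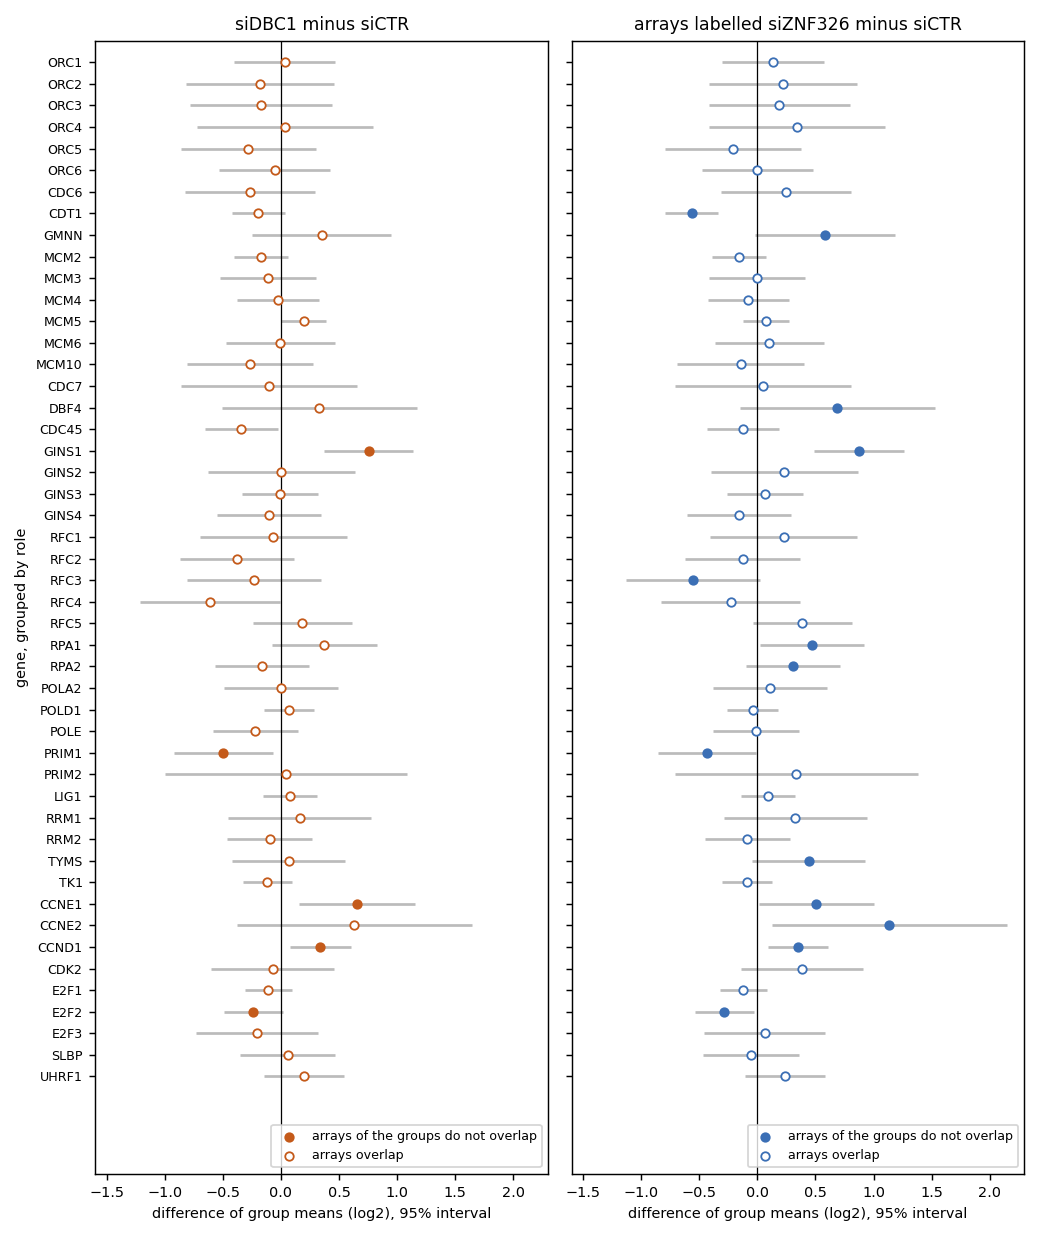
Difference from siCTR (log2, horizontal axis) with its 95% interval for 48 genes in siDBC1 (left) and in the arrays labelled siZNF326 (right), with filled points where the arrays of the 2 groups do not overlap. GINS1 is at 0.75 and 0.88, CCNE2 has a wide interval in both panels, and CDT1 is at −0.57 on the right.

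Among the licensing genes, CDT1 and its inhibitor GMNN differed from siCTR in opposite directions in the arrays labelled siZNF326. CDT1 (probe set 3673684) read 8.28, 8.13 and 8.20 in siDBC1, 7.90, 7.86 and 7.73 in the arrays labelled siZNF326, and 8.25, 8.40 and 8.55 in siCTR. The arrays labelled siZNF326 were below all others, and siDBC1 overlapped siCTR. CDT1 differed from siCTR by −0.20 in siDBC1 (SE 0.10, limma adjusted p = 0.882) and by −0.57 in the arrays labelled siZNF326 (SE 0.10, limma adjusted p = 0.106), or 1.48-fold lower. The first was −0.12 without siCTR replicate 3. The second passed with arrays centred on their medians (−0.66, limma adjusted p = 0.0439), and in 2 of 17 alternatives in all. GMNN read 7.26, 6.67 and 7.73 in siDBC1, 7.70, 7.33 and 7.33 in the arrays labelled siZNF326, and 6.71, 6.80 and 7.09 in siCTR. The second group lay above siCTR, with a difference of 0.58 (SE 0.26, limma adjusted p = 0.588), while siDBC1 ran from below to above it. CDC6, the other loader, read 8.27, 7.77 and 8.70 in siDBC1, 9.09, 8.58 and 8.60 in the arrays labelled siZNF326, and 8.48, 8.41 and 8.66 in siCTR, with overlap throughout. The 6 origin recognition genes lay between −0.28 (ORC5) and 0.04 (ORC4) in siDBC1. In the arrays labelled siZNF326 they lay between −0.21 and 0.34 (the same genes). Their arrays overlapped siCTR, except that ORC4 in the arrays labelled siZNF326 met it only at an identical value, 6.50.

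The helicase genes lay close to siCTR in the group means. MCM2 read 9.22, 8.995 and 9.22 in siDBC1, 9.15, 9.10 and 9.22 in the arrays labelled siZNF326, and 9.25, 9.22 and 9.47 in siCTR. Its difference was −0.17 in siDBC1 (95% interval −0.41 to 0.06, limma adjusted p = 0.928) and −0.16 in the arrays labelled siZNF326 (95% interval −0.39 to 0.08, limma adjusted p = 0.691). Without siCTR replicate 3 these were −0.093 and −0.080, and the first was −0.098 without siDBC1 replicate 2. The 5 measured MCM2-7 genes differed by −0.17 to 0.19 in siDBC1 and by −0.16 to 0.10 in the arrays labelled siZNF326, and the groups overlapped for each.

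GINS1, a subunit of the GINS complex that completes the active helicase, stood farthest from siCTR among the members in siDBC1. Its probe set (3880827) read 6.94, 6.76 and 7.27 in siDBC1, 7.31, 7.17 and 6.84 in the arrays labelled siZNF326, and 6.10, 6.29 and 6.32 in siCTR. All 6 siRNA arrays lay above all siCTR arrays. The means were 6.99 ± 0.26, 7.11 ± 0.24 and 6.23 ± 0.12 (SD, n = 3 each). The difference was 0.75 in siDBC1 (SE 0.17, limma adjusted p = 0.373), or 1.69-fold, and 0.88 in the arrays labelled siZNF326 (SE 0.17, limma adjusted p = 0.128), or 1.83-fold. Both passed after quantile normalization (0.74, limma adjusted p = 0.0302, and 0.73, limma adjusted p = 0.0206), and the second also with arrays centred (0.78, limma adjusted p = 0.0366). Of 17 alternatives, the first passed in 2 and the second in 3. The other subunits lay closer to siCTR. GINS2, GINS3 and GINS4 differed by 0.004, −0.01 and −0.10 in siDBC1 and by 0.23, 0.07 and −0.16 in the arrays labelled siZNF326.

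**Figure D5:**
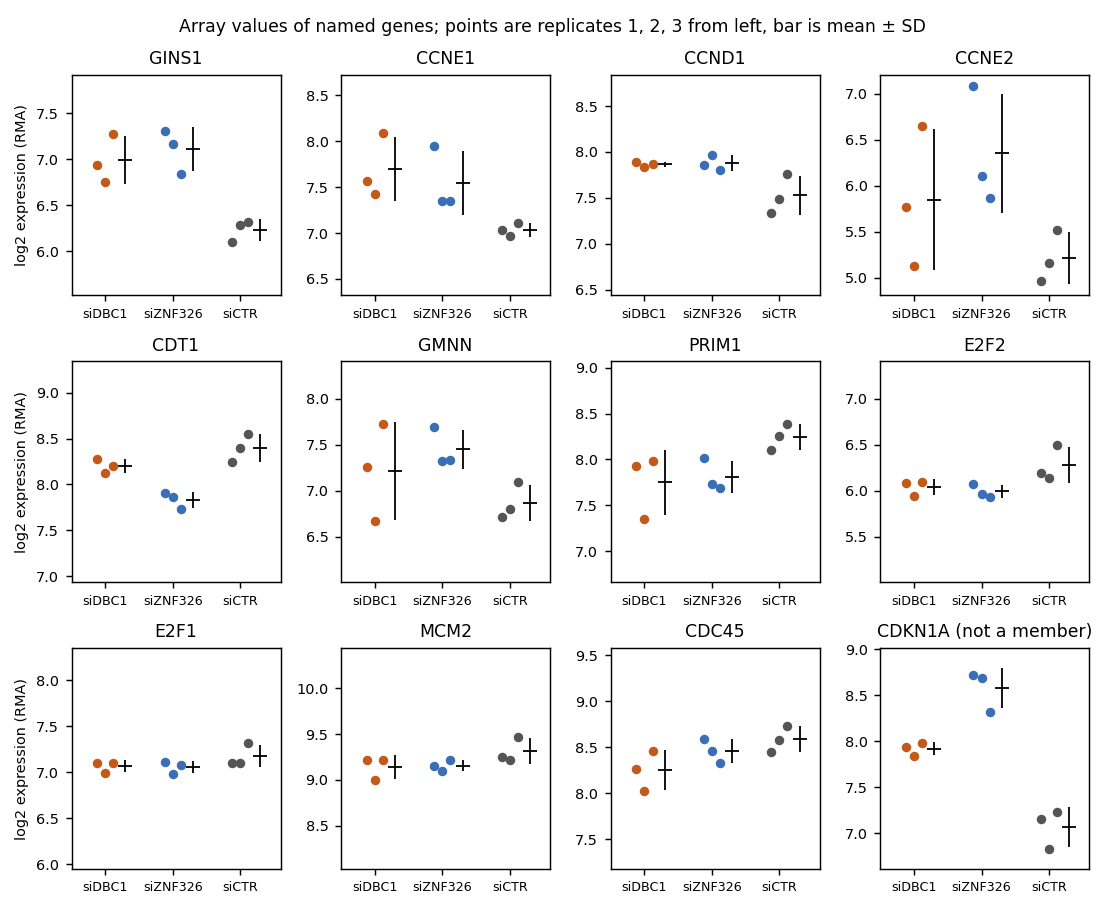
Log2 values of 12 genes on each array (points, replicates 1 to 3 from left) with mean ± SD (n = 3), for siDBC1, arrays labelled siZNF326 and siCTR. GINS1, CCNE1 and CCND1 lie above siCTR and PRIM1 and E2F2 below it on all 6 siRNA arrays, and CDT1 is lowest in the arrays labelled siZNF326.

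CDC45, the helicase partner of GINS, read 8.26, 8.02 and 8.46 in siDBC1, 8.59, 8.46 and 8.33 in the arrays labelled siZNF326, and 8.45, 8.58 and 8.73 in siCTR. It differed by −0.34 in siDBC1 (SE 0.13, limma adjusted p = 0.778), with 1 siDBC1 array just above the lowest of siCTR. MCM10 and the kinase CDC7 differed by −0.27 and −0.10 in siDBC1 and by −0.15 and 0.05 in the arrays labelled siZNF326. DBF4, the activator of CDC7, differed by 0.33 and 0.69 and read 3.79 to 4.01 in siCTR. It lay below the lower quartile of the array on 6 of 9 arrays, the only member to do so on any, so its values are dim.

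At the fork, subunits of 1 complex lay on both sides of siCTR. RFC4, a clamp loader subunit, read 8.21, 7.54 and 8.68 in siDBC1, 8.72, 8.46 and 8.40 in the arrays labelled siZNF326, and 8.71, 8.66 and 8.89 in siCTR. Its difference in siDBC1 was −0.61 (SE 0.26, limma adjusted p = 0.803) and −0.31 without siDBC1 replicate 2, with 1 siDBC1 array among those of siCTR. RFC3, another subunit, differed by −0.55 in the arrays labelled siZNF326 (limma adjusted p = 0.591) and RFC5 by 0.39 (limma adjusted p = 0.61). RPA1, the large subunit of the single-strand binding protein RPA, read 9.20, 8.95 and 9.55 in siDBC1, 9.64, 9.27 and 9.08 in the arrays labelled siZNF326, and 8.70, 8.87 and 9.01 in siCTR. The second group lay above siCTR, with a difference of 0.47 (SE 0.19, limma adjusted p = 0.557). RPA2, the middle subunit, read 7.11, 6.60 and 7.25 in siDBC1, 7.47, 7.50 and 7.40 in the arrays labelled siZNF326, and 7.24, 6.93 and 7.27 in siCTR. The arrays labelled siZNF326 were above all others.

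PRIM1, the catalytic subunit of primase, read 7.92, 7.35 and 7.98 in siDBC1, 8.01, 7.73 and 7.69 in the arrays labelled siZNF326, and 8.10, 8.26 and 8.38 in siCTR. All 6 siRNA arrays lay below all siCTR arrays. The difference was −0.50 in siDBC1 (SE 0.18, limma adjusted p = 0.738), or −0.29 without siDBC1 replicate 2, and −0.43 in the arrays labelled siZNF326 (SE 0.18, limma adjusted p = 0.565), and the second passed after quantile normalization (−0.57, limma adjusted p = 0.0461). Its partner PRIM2 differed by 0.04 and 0.34 (SE 0.45 each), the widest error of any member. The polymerase genes POLA2, POLD1 and POLE and the ligase LIG1, which seals Okazaki fragments, lay between −0.22 and 0.11 in both groups.

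Of the 4 members of nucleotide supply, TYMS, which makes thymidylate, differed most in the arrays labelled siZNF326. It read 8.85, 8.34 and 9.16 in siDBC1, 9.34, 9.22 and 8.93 in the arrays labelled siZNF326, and 8.64, 8.67 and 8.85 in siCTR. The arrays labelled siZNF326 lay above siCTR by 0.44 (SE 0.21, limma adjusted p = 0.609). The ribonucleotide reductase subunits RRM1 and RRM2 differed by 0.16 and −0.10 in siDBC1 and by 0.32 and −0.09 in the arrays labelled siZNF326, and thymidine kinase TK1 by −0.12 and −0.09. SLBP, which binds histone mRNA, differed by 0.06 and −0.05, and UHRF1, which guides DNA methylation to new DNA, by 0.20 and 0.24.

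The G1/S cyclins were the role with the highest median, 0.48 in siDBC1 and 0.45 in the arrays labelled siZNF326 over 4 genes with CDK2, and none passed. CCNE1, cyclin E1, read 7.57, 7.42 and 8.09 in siDBC1, 7.94, 7.35 and 7.35 in the arrays labelled siZNF326, and 7.03, 6.96 and 7.11 in siCTR. All siRNA arrays were above siCTR, by 0.66 (SE 0.21, limma adjusted p = 0.669) and 0.51 (SE 0.21, limma adjusted p = 0.565). CCNE2, cyclin E2, read 5.77, 5.13 and 6.65 in siDBC1, 7.09, 6.11 and 5.87 in the arrays labelled siZNF326, and 4.97, 5.16 and 5.52 in siCTR. Its difference was 0.63 in siDBC1 (SE 0.44, limma adjusted p = 0.948) and 1.14 in the arrays labelled siZNF326 (SE 0.44, limma adjusted p = 0.526), or 2.20-fold, and the arrays of each siRNA ranged more widely than siCTR. The first was 0.99 without siDBC1 replicate 2 and 0.23 without siDBC1 replicate 3. The second was 0.77 without siZNF326 replicate 1. CCND1, cyclin D1, read 7.89, 7.84 and 7.87 in siDBC1, 7.86, 7.97 and 7.81 in the arrays labelled siZNF326, and 7.34, 7.49 and 7.76 in siCTR. It lay above siCTR by 0.34 (SE 0.11, limma adjusted p = 0.685) and 0.35 (SE 0.11, limma adjusted p = 0.415), and here siCTR had the widest spread. Dimmer probe sets shared by CCND1 and LTO1 differed by −0.07 and 0.04 in siDBC1 and by −0.06 and 0.12 in the arrays labelled siZNF326. Their arrays overlapped siCTR. CDK2, the kinase of cyclin E, read 8.34, 7.93 and 8.68 in siDBC1, 9.16, 8.69 and 8.47 in the arrays labelled siZNF326, and 8.29, 8.34 and 8.54 in siCTR, with overlap in each comparison.

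E2F factors drive S-phase genes. E2F1 read 7.11, 6.99 and 7.11 in siDBC1, 7.11, 6.98 and 7.07 in the arrays labelled siZNF326, and 7.11, 7.11 and 7.32 in siCTR. Replicates 1 and 2 of siCTR were level with several siRNA arrays, and siCTR replicate 3 was the high one. E2F1 differed by −0.11 (95% interval −0.31 to 0.09, limma adjusted p = 0.957) and −0.12 (95% interval −0.32 to 0.08, limma adjusted p = 0.722), and by −0.038 and −0.051 without siCTR replicate 3. E2F2 read 6.08, 5.94 and 6.09 in siDBC1, 6.07, 5.97 and 5.93 in the arrays labelled siZNF326, and 6.20, 6.14 and 6.50 in siCTR. All 6 siRNA arrays were below siCTR, by −0.24 (SE 0.11, limma adjusted p = 0.844) and −0.29 (SE 0.11, limma adjusted p = 0.524), the second being −0.18 without siCTR replicate 3. E2F3 differed by −0.20 and 0.06.

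Values of the 5 other genes cannot be assigned to them alone. The probe set shared by PCNA and PCNA-AS1 read 9.48, 9.39 and 9.74 in siDBC1, 9.92, 9.75 and 9.38 in the arrays labelled siZNF326, and 9.34, 9.40 and 9.30 in siCTR, so both groups overlapped siCTR. That of FEN1 and FADS2, a fatty acid desaturase, read 8.03, 7.86 and 8.09 in siDBC1, 7.83, 7.60 and 7.33 in the arrays labelled siZNF326, and 7.82, 7.69 and 7.83 in siCTR. Here siDBC1 lay above siCTR on all arrays and above the arrays labelled siZNF326 too. The probe sets shared by MCM7, POLA1 or RPA3 with other genes differed from siCTR by −0.15, −0.03 and 0.01 in siDBC1 and by −0.11, 0.23 and 0.01 in the arrays labelled siZNF326.

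Between the arrays labelled siZNF326 and siDBC1, 0 of 48 members were called by limma, where 0.00909% of all probe sets were, and 2 stood at an unadjusted p under 0.05, where 7.31% of all probe sets did. The 1 higher (RPA2) compares with 4.88% of probe sets and the 1 lower (CDT1) with 2.43%. Of the 48 members, 38 (79.2%) were above siDBC1 and 10 below, where 55.4% of all probe sets were above. Their median difference was 0.11, against 0.02 over all probe sets. This median was −0.04 without siDBC1 replicate 2 and 0.31 without siDBC1 replicate 3, −0.01 after quantile normalization and 0.03 with arrays centred. The groups did not overlap for 2 members, where 9.45% of all probe sets did so. CDT1 was lower in the arrays labelled siZNF326 (−0.37, SE 0.10, limma adjusted p = 0.577), where 4.24% of all probe sets were lower, and RPA2 higher (0.47, SE 0.17, limma adjusted p = 0.657), where 5.21% were. CDC6, CDK2, TYMS and CDC45 followed with 0.51, 0.46, 0.38 and 0.21, and their arrays overlapped. Without siDBC1 replicate 2 these were 0.28, 0.26, 0.15 and 0.10, and RPA2 was 0.28. CDK2 was 0.26 without siZNF326 replicate 1, and TYMS was 0.56 without siDBC1 replicate 3.

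Other replication and G1/S genes were counted in 6 lists, with 69 of 84 genes on a probe set of their own. In siDBC1 0 of 69 were called by limma, where 0.0363% of all probe sets were. At an unadjusted p under 0.05 stood 3 (4.35%), 2 higher and 1 lower, against 6.18% of all probe sets, and the median difference was −0.02. In the arrays labelled siZNF326 1 was called, higher, where 0.15% of all probe sets were called. At an unadjusted p under 0.05 stood 9 (13.0%), against 8.65% of all probe sets, 5 of them higher (6.13% of probe sets) and 4 lower (2.52% of probe sets), and the median was 0.12. The called gene was CDKN1A. It read 7.93, 7.84 and 7.98 in siDBC1, 8.72, 8.68 and 8.32 in the arrays labelled siZNF326, and 7.16, 6.82 and 7.22 in siCTR. The groups stood in 3 separate steps, with siDBC1 between the other 2. CDKN1A rose by 1.51 in the arrays labelled siZNF326 (SE 0.14, limma adjusted p = 0.0216), while its difference of 0.85 in siDBC1 did not pass (SE 0.14, limma adjusted p = 0.216). The call was kept in 7 of 17 alternatives (limma adjusted p from 0.00489 to 0.173), and it was lost without any 1 of the siCTR arrays, of the arrays labelled siZNF326 or of siDBC1 replicate 1.

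CCND2, cyclin D2, differed from siCTR in the direction opposite to CCND1. It read 8.40, 8.20 and 8.78 in siDBC1, 8.61, 8.35 and 8.06 in the arrays labelled siZNF326, and 8.78, 9.15 and 9.30 in siCTR. The differences were −0.62 (SE 0.21, limma adjusted p = 0.694) and −0.74 (SE 0.21, limma adjusted p = 0.347), and the second passed after quantile normalization (−0.85, limma adjusted p = 0.0304). Of 17 alternatives, the first passed in 1 and the second in 2. POLE4, an accessory subunit of polymerase epsilon, differed by 0.74 in the arrays labelled siZNF326 (limma adjusted p = 0.254), and POLD2, one of polymerase delta, by −0.32 (limma adjusted p = 0.357). In siDBC1 the nucleotide pyrophosphatase DCTPP1 differed by 0.31 (limma adjusted p = 0.764), or 0.18 without siCTR replicate 1, and the origin factor LRWD1 by 0.17 (limma adjusted p = 0.812). Between the arrays labelled siZNF326 and siDBC1, 0 of 69 were called by limma, where 0.00909% of all probe sets were. At an unadjusted p under 0.05 stood 5 (7.25%), 3 higher and 2 lower, close to the 7.31% of all probe sets. CDKN1A, CHTF18, a clamp loader component, POLE4 and SKP2, which targets CDKN1B for degradation, differed by 0.66, −0.27, 0.54 and 0.40 there, with limma adjusted p from 0.414 to 0.677, and SKP2 by 0.24 without siDBC1 replicate 2.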

How the data were processed

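RNA from 9 HEK293 cultures, purified on columns with on-column DNase treatment and depleted of ribosomal RNA, was labelled by Affymetrix's whole-transcript protocol, per the labels' protocols. The deposited table holds log2 values from RMA, 1 per probe set and array, and hg18 is the build named, per the submitters' processing notes. No version of RMA was given there, and the log2 scale is taken from RMA's usual output and a range of 0.333 to 13.4 in the table. Identical values on 2 or more arrays occurred for 14 of the 48 members.

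All 22011 probe sets were fitted with 3 group means in limma 3.58.1 under R 4.3.3, two-sided, with eBayes and Benjamini-Hochberg adjustment over the table. A gene was read from its probe set with 1 symbol and the highest mean. The fit was tested on simulated data. In each comparison the 6 members and the 4 other pathway genes with the smallest p were named, beside all called ones and PCNA (shared probe set only), MCM2, CDT1, CCNE2, E2F1, CCND1 and CDKN1A, and further members are given by role. The members and lists were chosen with earlier results of these data known. Promoters came from RefSeq on GRCh38.p14. Alternatives were a replicate block, the 2 groups alone, quantile normalization, centring, a filter on low means, a variance trend and leaving out each array.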

Additional observations from a re-analysis of the deposited data

How the results depend on the processing

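The 95% intervals of the members reach a median of 0.46 to either side on the log2 scale, which limits what 3 arrays per group can show. Counts of called members were 0 in each of the 9 omissions of 1 array in all 3 comparisons, and also with the replicate block. After quantile normalization 1 member was called in siDBC1 and 2 in the arrays labelled siZNF326, and with arrays centred 2 were called in the arrays labelled siZNF326. Calls over all 22011 probe sets rose too, to 69 and 196 after quantile normalization and to 46 and 119 with arrays centred, against 8 and 33. With the array median as a covariate, chosen after the data were seen, 6 were called in siDBC1, 5 in the arrays labelled siZNF326 and 1 between the siRNAs (RFC3), and the members' median in the arrays labelled siZNF326 was −0.12 against siCTR. Other pathway genes called in siDBC1 were 4 with that covariate. In the arrays labelled siZNF326 they were 2 after quantile normalization, 4 with the covariate, 0 with the replicate block, 0 with only the 2 groups fitted, 0 without the 3 arrays that stand apart and 0 to 1 over the omissions. Between the siRNAs the members' median ran from −0.043 to 0.31 over the omissions. A further 3 small differences between the siRNAs changed sign. MCM2 was 0.01, and −0.067 after quantile normalization, −0.065 with arrays centred, −0.042 with the covariate, −0.059 without the 3 arrays and −0.061 to 0.049 over the omissions. CCND1 was 0.01, and −0.12, −0.066 and −0.019 under the same first 3 alternatives and −0.035 to 0.048 over the omissions. E2F1 was −0.01, and −0.051 to 0.024 over the omissions. The cause was not tested. Deviations from the group means correlated between −0.296 and 0.396 for arrays of the same number, and 4 of 9 arrays correlated best with their own number. With 3 arrays per group these values cannot show whether arrays of the same number were paired. With the number as a replicate block, 0, 1 and 0 probe sets of the whole table were called by limma, against 8, 33 and 2 without it.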
